A study of Arabidopsis thaliana with 4 samples.

Results

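The 3′ ends of RNA polymerase V (Pol V) transcripts were compared between 2 independent mutant alleles of RRP6L1, rrp6L1-1 and rrp6L1-2, at all 7 loci that the 2 tables name. These 2 libraries are 2 of the 4 in the series, and both tables named the same 7 loci: IGN29, IGN35, IGN23, IGN5t, IGN5b, IGN25 and IGN17. Plants of every group were of the Col-0 ecotype, grown in soil under 16 hours of light and 8 hours of dark, and above-ground tissue was taken at 2.5 weeks. The groups were the rrp6L1-1 mutant, the rrp6L1-2 mutant, the nrpe1-11 mutant of NRPE1, which encodes the largest Pol V subunit, and the Col-0 wild type. What lesion each rrp6L1 allele carries is not given in the sources used here, and each genotype was 1 library of pooled PCR products, so no difference below has a replicate error or a test. The question addressed is how far the 2 alleles gave the same transcript ends, read directly against each other.

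Pol V is a plant polymerase whose noncoding transcripts stay at chromatin and serve as a scaffold for small RNAs that guide DNA methylation. RRP6L1 is a plant relative of RRP6, a 3′-to-5′ exonuclease associated with the RNA exosome in yeast. Such an enzyme shortens RNA from its 3′ end. The assay was 3′ RACE, in which RNA is given a poly(A) tail, copied from an oligo(dT) primer and amplified between that primer and primers for chosen loci, so that each read gives the position where an RNA ended.

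The rrp6L1-1 library held 109895 reads and the rrp6L1-2 library 89304, against 141489 in Col-0 after 27611 repeated lines were dropped there. Neither allele's table had repeated lines, and 0 read names were shared between the alleles or between either allele and Col-0. The fewest ends at a locus were 9307 in rrp6L1-1 (IGN17) and 6999 in rrp6L1-2 (IGN5t). The nrpe1-11 library held 14 reads at 6 of the loci together and 248926 at IGN23, of which 92.1% ended at 40 nt. That position held 0.243% of the IGN23 ends in rrp6L1-1, 0.170% in rrp6L1-2 and 0.192% in Col-0. Intervals of shares and medians cover counting error only, since the reads passed nested PCR and carry no molecular identifiers.

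Ends are given as length, the deposited distance in nt from a fixed position of the locus, which is length 1. A position is called used in a library when it held at least 1% of that library's ends at the locus. The stretches below run from length 1 to the farthest position used by either allele, 5′ to 3′ in the direction in which length grows, as read from the NCBI RefSeq copy of the genome, TAIR10.1. No annotated gene was overlapped by any of these stretches. IGN29, IGN5t, IGN5b, IGN25 and IGN17 are shown with a line for each allele, ordered by the share of ends in common at single positions given below, and capitals mark the bases at which that allele's used ends lie. IGN29 lies at chr2:15314845-15314930 on the plus strand, 38 nt from DML1, the gene of a DNA demethylase. IGN5t lies at chr4:2323014-2323136 on the minus strand and IGN5b at chr4:2323304-2323395 on the plus strand, with IGN5b upstream of APR1, which encodes an enzyme of sulfate assimilation. IGN25 lies at chr4:5459179-5459323 and IGN17 at chr1:13585662-13585712, both on the plus strand. IGN25 lies between AT4G08570, 3079 nt to its left, and AT4G08580 to its right. Among annotated genes and pseudogenes, the only features searched, the nearest to IGN17 is a pseudogene 4666 nt to its left.
IGN29 rrp6L1-1: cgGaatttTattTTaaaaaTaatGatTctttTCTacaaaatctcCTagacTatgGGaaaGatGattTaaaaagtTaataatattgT
IGN29 rrp6L1-2: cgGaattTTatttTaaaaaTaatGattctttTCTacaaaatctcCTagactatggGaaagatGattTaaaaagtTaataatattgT
IGN5t rrp6L1-1: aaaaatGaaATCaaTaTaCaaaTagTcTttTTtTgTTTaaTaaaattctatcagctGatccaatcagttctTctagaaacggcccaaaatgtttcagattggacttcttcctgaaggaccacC
IGN5t rrp6L1-2: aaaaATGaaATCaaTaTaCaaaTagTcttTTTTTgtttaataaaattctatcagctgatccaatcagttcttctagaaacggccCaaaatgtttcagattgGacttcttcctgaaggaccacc
IGN5b rrp6L1-1: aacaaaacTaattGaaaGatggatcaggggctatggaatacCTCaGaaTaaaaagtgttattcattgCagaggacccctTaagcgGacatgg
IGN5b rrp6L1-2: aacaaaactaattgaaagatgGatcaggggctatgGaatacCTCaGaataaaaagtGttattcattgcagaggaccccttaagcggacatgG
IGN25 rrp6L1-1: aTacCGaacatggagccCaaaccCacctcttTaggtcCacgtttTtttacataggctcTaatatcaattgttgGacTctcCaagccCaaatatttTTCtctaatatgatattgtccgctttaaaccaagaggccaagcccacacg
IGN25 rrp6L1-2: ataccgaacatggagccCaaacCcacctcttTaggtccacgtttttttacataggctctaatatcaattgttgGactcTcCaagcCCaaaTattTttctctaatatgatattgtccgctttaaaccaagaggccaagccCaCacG
IGN17 rrp6L1-1: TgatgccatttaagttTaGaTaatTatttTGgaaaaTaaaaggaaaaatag
IGN17 rrp6L1-2: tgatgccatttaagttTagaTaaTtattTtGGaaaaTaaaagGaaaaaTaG

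For IGN23 (chr4:2577995-2578097, plus strand, 21 nt from AT4G05030) and IGN35 (chr4:6549083-6549232, plus strand, 205 nt from AT4G10600), where most used positions were common to the alleles, capitals mark the positions used by both.
IGN23 both alleles: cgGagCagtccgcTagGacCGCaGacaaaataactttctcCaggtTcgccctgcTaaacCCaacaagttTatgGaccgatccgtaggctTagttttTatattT
IGN35 both alleles: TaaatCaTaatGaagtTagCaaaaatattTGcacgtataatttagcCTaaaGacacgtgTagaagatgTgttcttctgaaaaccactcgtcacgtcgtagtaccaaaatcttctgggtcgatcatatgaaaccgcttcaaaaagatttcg

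The alleles had close medians at most loci and yet ended at largely different bases at 3 of them. The median length differed by under 10 nt at 5 of 7 loci and by 0 nt at IGN5b and IGN25. Position by position, the share of ends in common, the sum over positions of the smaller of the 2 shares, was 83.6% at IGN29, 67.5% at IGN35, 63.4% at IGN23, 52.1% at IGN5t, 32.5% at IGN5b, 17.7% at IGN25 and 13.2% at IGN17. IGN5b and IGN25, with equal medians, were thus among the 3 loci with the least in common. IGN5b, IGN25 and IGN17 were the lowest 3 under all alternatives tried, but their order changed. In bins of 5 nt the shares were 39.3% at IGN5b, 23.3% at IGN25 and 39.3% at IGN17, and in bins of 10 nt they were 39.96%, 38.88% and 40.51%. Without the most frequent positions of the alleles they were 18.7%, 20.4% and 27.4%, and without positions followed by a genomic A 21.4%, 7.53% and 32.5%. By the same measure at single positions, the alleles had more in common with each other than either had with Col-0 at IGN29, IGN35, IGN23 and IGN5b. They did not at IGN5t, IGN25 and IGN17. At IGN29 rrp6L1-1 had 82.1% in common with Col-0 and rrp6L1-2 79.0%. At IGN25 these were 19.5% and 42.2%, and at IGN17 22.3% and 4.78%. The split depended on the bin. In bins of 5 nt IGN17 joined the first group, with 39.3% between the alleles against 25.1% (rrp6L1-1 and Col-0) and 9.97% (rrp6L1-2 and Col-0). In bins of 10 nt IGN17 (40.51% against 28.2% and 12.2%) and IGN5t (74.2% against 65.4% and 59.4%) were in it. IGN35 (73.8% against 76.2% and 69.3%) and IGN23 (72.0% against 75.6% and 67.5%) then were not. The median over the loci at single positions was 52.1% between the alleles, 53.3% between rrp6L1-1 and Col-0 and 48.3% between rrp6L1-2 and Col-0. In bins of 5 nt these medians were 56.25%, 62.5% and 56.1%, and in bins of 10 nt 72.0%, 65.4% and 59.4%.

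**Figure D1:**
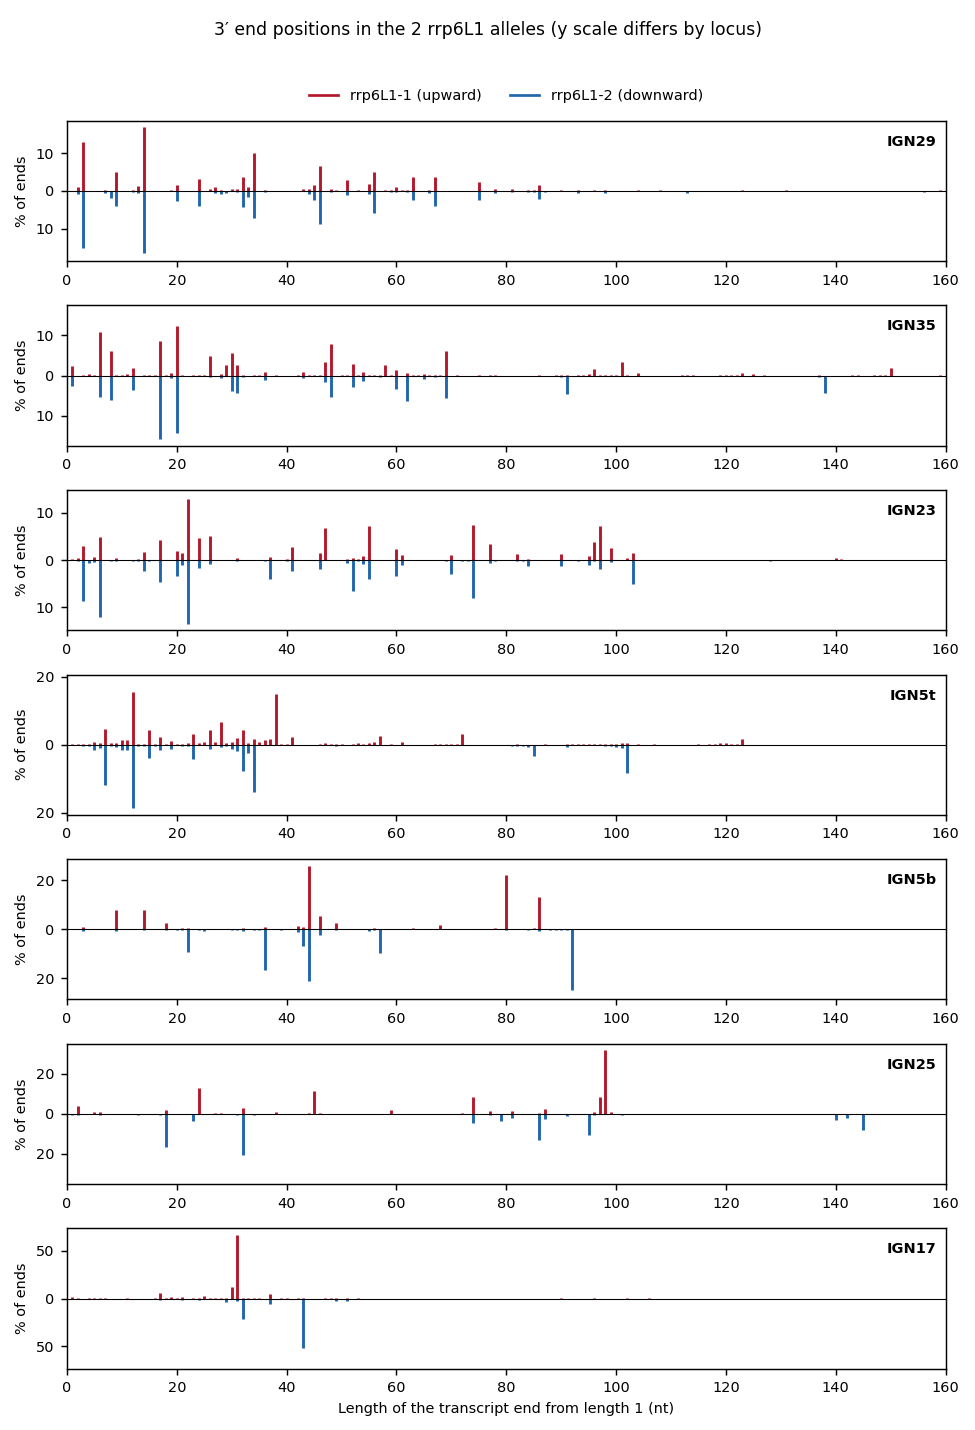
Share of the ends of each locus (y axis, %, scale set per locus) at each length (x axis, nt, up to 160 nt) in rrp6L1-1 (red, drawn upward) and rrp6L1-2 (blue, drawn downward). IGN29 at the top is close to a mirror image, with 83.6% of ends in common, while the tallest lines of IGN17 at the bottom, 31 nt in rrp6L1-1 and 43 nt in rrp6L1-2, do not face each other.

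Length quantiles of the alleles lay within 10 nt at fewer loci at the long end than at the short end. At the 25% quantile of length, with 25% of ends at or below it, the alleles lay within 10 nt at 7 of 7 loci, with a median absolute difference of 0 nt. At the 10% quantile they lay within 10 nt at 6 of 7 loci, at the median at 5, and at the 75% and 90% quantiles at 4 each. The median absolute difference did not grow in that order, at 6 nt for the 10% quantile, 1 nt for the median, 8 nt for the 75% quantile and 7 nt for the 90% quantile. At the 90% quantile the 3 other loci were all longer in rrp6L1-2. IGN25 reached 98 nt in rrp6L1-1 and 142 nt in rrp6L1-2, IGN5t 72 nt and 99 nt, and IGN17 31 nt and 43 nt. At the 75% quantile IGN23 was longer in rrp6L1-1, at 74 nt against 60 nt in rrp6L1-2, whereas IGN5b was shorter, at 80 nt against 91 nt, as was IGN17, at 31 nt against 43 nt. From rrp6L1-1 to Col-0 the median absolute difference was 6, 2, 8, 24 and 13 nt at the 10%, 25%, 50%, 75% and 90% quantiles. From rrp6L1-2 to Col-0 it was 6, 7, 13, 24 and 14 nt in that order.

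**Figure D2:**
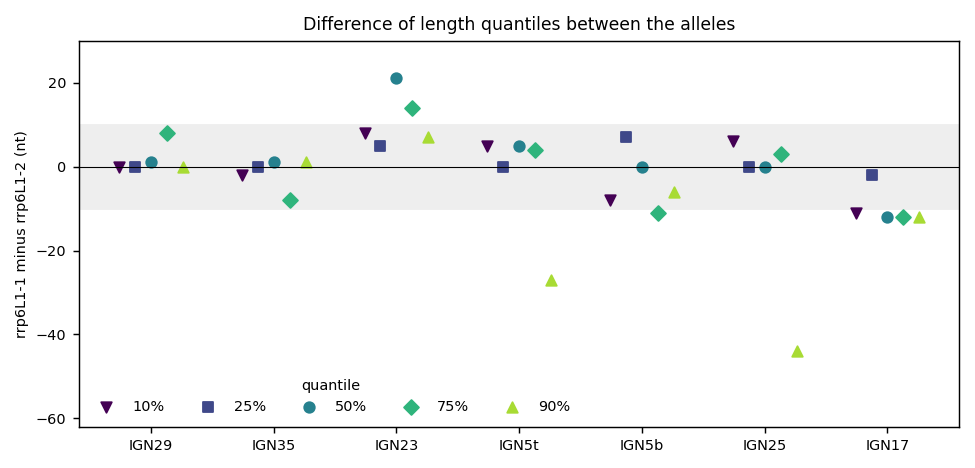
Difference of length quantiles, rrp6L1-1 minus rrp6L1-2 (y axis, nt), at 5 quantiles (marker shape and shade) for each locus (x axis); the grey band marks 10 nt on either side of 0. IGN29 and IGN35 stay inside the band at all 5 quantiles, while the 90% quantile lies at -27 nt for IGN5t and -44 nt for IGN25.

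In all, 152 positions were used by at least 1 allele, 118 by rrp6L1-1 and 105 by rrp6L1-2. Both alleles used 71 of them (46.7%), which are 60.2% of the rrp6L1-1 positions and 67.6% of the rrp6L1-2 positions. The remaining 47 were used by rrp6L1-1 alone and 34 by rrp6L1-2 alone. Shares differed under 2-fold between the alleles at 58 positions (38.2%) and at least 10-fold at 57 (37.5%), of which 34 were higher in rrp6L1-1 (22.4%) and 23 higher in rrp6L1-2 (15.1%). For a share of 0, 3 ends were assumed, which was needed at 8 of the 57. Of the 71 positions used by both, 1 was among the 57, at 31 nt of IGN17, with a 30.1-fold higher share in rrp6L1-1. The rule itself keeps this count low. Both shares are at least 1% at such a position, so only one with a high share in an allele can differ that much. By the same rule, 60 of 161 positions differed at least 10-fold between rrp6L1-1 and Col-0 (37.3%) and 62 of 151 between rrp6L1-2 and Col-0 (41.1%). Positions used by both libraries were 64 of 161 (39.8%) for rrp6L1-1 and Col-0 and 61 of 151 (40.4%) for rrp6L1-2 and Col-0. These last 2 comparisons share the Col-0 library.

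The loci lay well apart around that 37.5%. At least 10-fold differences made up 1 of 21 used positions at IGN29 (4.76%), 4 of 28 at IGN23 (14.3%), 9 of 26 at IGN5t (34.6%) and 9 of 24 at IGN35, the same 37.5% as over all loci. They made up 8 of 14 at IGN17 (57.1%), 10 of 15 at IGN5b and 16 of 24 at IGN25 (66.7% each). Positions used by a single allele were picked by a share of at least 1% in that allele and under 1% in the other. Unequal shares there thus follow in part from the rule. Of these 81 positions, 56 differed at least 10-fold and 5 under 2-fold, the last being positions near the 1% limit in both. At IGN35, for example, 36 nt held 0.979% in rrp6L1-1 and 1.03% in rrp6L1-2.

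**Figure D3:**
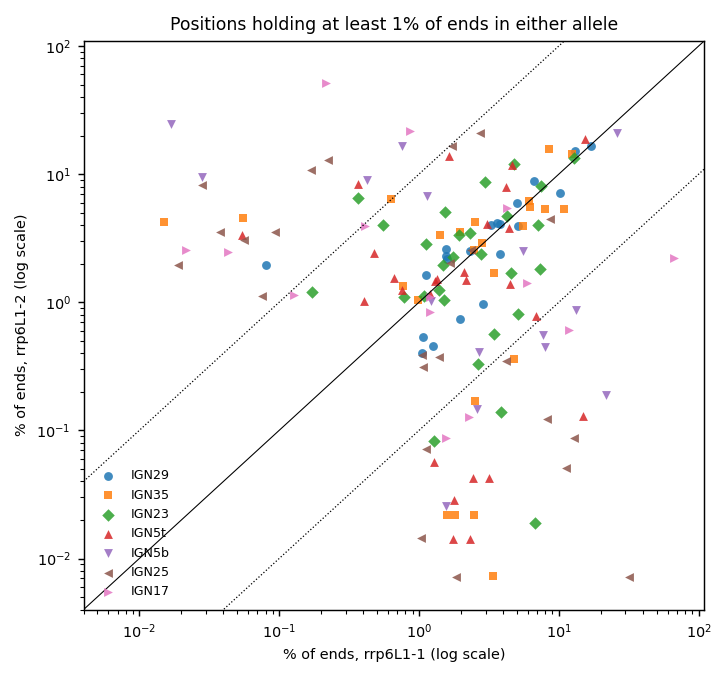
Share of the ends of the locus at each of the 152 positions used by at least 1 allele, in rrp6L1-1 (x axis, %, log scale) and rrp6L1-2 (y axis, %, log scale), with marker and colour by locus. The solid line marks equal shares and the dotted lines 10-fold differences; shares of 0 are drawn at 3 ends. All but 1 of the 21 IGN29 points lie between the dotted lines, and 16 of the 24 IGN25 points lie outside them.

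The 3 loci with the least in common also had their ends on few positions. The effective number of positions, the inverse of the summed squared shares, was 2.14 in rrp6L1-1 and 3.09 in rrp6L1-2 at IGN17. It was 6.65 and 6.36 at IGN5b, and 6.66 and 8.86 at IGN25. At the other 4 loci it lay between 13.5 (IGN29) and 18.6 (IGN23) in rrp6L1-1 and between 11.3 (IGN5t) and 15.4 (IGN23) in rrp6L1-2. The 3 most frequent positions held 84.7% of the IGN17 ends in rrp6L1-1 and 79.2% in rrp6L1-2, against 27.7% and 34.1% at IGN23. In rrp6L1-2 the number of ends did not follow this order, with 9140 at IGN29, which had the most in common, and 18209 at IGN17. In rrp6L1-1 the fewest ends were at IGN17 (9307) and IGN25 (10636), against 14880 at IGN29, though IGN5b had 17850. A link between the number of ends and the share in common was not tested.

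**Figure D4:**
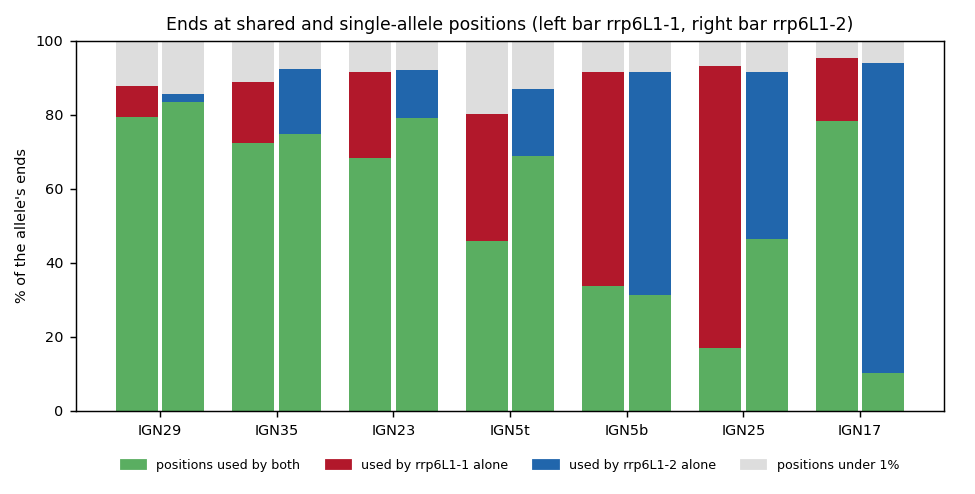
Share of each allele's ends (y axis, %) at positions used by both alleles (green), by rrp6L1-1 alone (red), by rrp6L1-2 alone (blue) and at positions under 1% in that allele (grey), with rrp6L1-1 as the left bar and rrp6L1-2 as the right bar of each locus. The green part is 79.5% and 83.5% at IGN29; at IGN17 it is 78.3% in rrp6L1-1 and 10.2% in rrp6L1-2, because 31 nt is used by both at very unequal shares.

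At single positions the alleles had the most in common at IGN29. Without positions followed by a genomic A it had 69.1% in common, against 69.5% at IGN35. Its medians were 33 nt in rrp6L1-1 (95% counting interval 32 to 33 nt), 32 nt in rrp6L1-2 (29 to 32 nt) and 33 nt in Col-0. The alleles shared 15 positions, out of 20 used in rrp6L1-1 and 16 in rrp6L1-2. The most frequent, 14 nt, held 16.9% in rrp6L1-1 (2515 of 14880 ends), 16.6% in rrp6L1-2 (1518 of 9140) and 17.2% in Col-0. The next, 3 nt, held 13% in rrp6L1-1, 15.1% in rrp6L1-2 and 7.60% in Col-0. The widest gaps in percentage points were at 34 nt, with 10.2% in rrp6L1-1, 7.17% in rrp6L1-2 and 14.9% in Col-0, and at 46 nt, with 6.62%, 8.87% and 5.92% in that order. Shares differed under 2-fold at 15 of the 21 positions (71.4%). The exception past 10-fold was 8 nt, with 0.0806% in rrp6L1-1 (12 ends), 1.96% in rrp6L1-2 (179 ends) and 1.9% in Col-0. The other 5 positions, at 13, 27, 51, 55 and 60 nt, were 2.01 to 2.99 times higher in rrp6L1-1. Far positions were shared too, with 2.33% and 2.51% at 75 nt in the alleles against 0.474% in Col-0.

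At IGN35 the alleles had used positions in common up to 69 nt and none beyond. The median was 29 nt in rrp6L1-1 (26 to 29 nt) and, in rrp6L1-2, 28 nt (20 to 30 nt). That of Col-0 was 43 nt. Most frequent overall was 20 nt, with 12.4% in rrp6L1-1, 14.3% in rrp6L1-2 and 6.16% in Col-0. At 17 nt the shares were 8.58%, 15.8% and 8.67% in that order, and at 6 nt they were 10.8%, 5.37% and 8.81%. All 13 positions used by both alleles lay between 1 and 69 nt. The last, 69 nt, held 6.22% in rrp6L1-1, 5.59% in rrp6L1-2 and 0.292% in Col-0.

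Beyond it each used IGN35 position belonged to a single allele. Before it, 4 of the 9 positions with a difference of at least 10-fold were found, at 26, 29, 58 and 62 nt. Ends at 26 nt made up 4.78% in rrp6L1-1, 0.359% in rrp6L1-2 and 0.501% in Col-0. Higher in rrp6L1-1 as well were 29 nt, with 2.50% against 0.0220% (3 ends) in rrp6L1-2, and 58 nt, with 2.52% against 0.169%. Ends at 62 nt made up 0.629% in rrp6L1-1, 6.37% in rrp6L1-2 and 5.51% in Col-0. Used by rrp6L1-1 alone past 69 nt were 96, 101 and 150 nt, the last with 1.81% of its ends (363 of 20026) and 0 of 13641 ends in rrp6L1-2, which allows a share of up to 0.0220%. Used by rrp6L1-2 alone were 91 nt, with 0.0549% in rrp6L1-1 and 4.57% in rrp6L1-2, and 138 nt, with 0 of 20026 ends in rrp6L1-1 (a share of up to 0.0150%) and 4.26% in rrp6L1-2. In Col-0 these positions held 3.49% (150 nt), 4.62% (91 nt) and 2.50% (138 nt). The direction for long ends depended on the limit. Beyond 60 nt lay 17.7% of ends in rrp6L1-1 (exact 95% counting interval 17.2% to 18.2%), 24% in rrp6L1-2 (23.3% to 24.7%) and 37.8% in Col-0, whereas 7.57% of ends lay beyond 100 nt in rrp6L1-1 (7.21% to 7.95%), 5.24% in rrp6L1-2 (4.87% to 5.63%) and 18.5% in Col-0. The median difference of 1 nt was -17 nt without the most frequent positions of the alleles and 16 nt without positions followed by a genomic A.

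IGN23 had much the same positions in both alleles, some of them at unequal weight. Both used 18 positions, 75% of those of rrp6L1-1 and 81.8% of those of rrp6L1-2. Shares differed under 2-fold at 13 of the 28 positions used by either allele (46.4%). At 22 nt, the most frequent in each, lay 12.9% in rrp6L1-1, 13.5% in rrp6L1-2 and 5.74% in Col-0. At 74 nt lay 7.49%, 8.08% and 2.05%. Short ends were more frequent in rrp6L1-2, at 3 nt with 2.96% in rrp6L1-1 and 8.66% in rrp6L1-2, and at 6 nt with 4.78% and 12%. Ends at 97 nt were more frequent in rrp6L1-1, with 7.30% against 1.82% in rrp6L1-2 and 16.8% in Col-0.

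The IGN23 medians lay 21 nt apart, at 47 nt in rrp6L1-1 and at 26 nt in rrp6L1-2, the second with an interval of 26 to 37 nt. In Col-0 the median was 55 nt. Without the ends at 1 to 10 nt the difference turned to -4 nt, and without positions followed by a genomic A to -4 nt, so its direction rests on those ends. Differences of at least 10-fold were found at 47, 52, 82 and 96 nt. The widest was 47 nt, with 6.73% in rrp6L1-1 (1635 ends) and 0.0189% in rrp6L1-2 (3 ends) against 1.81% in Col-0, and the 1 position higher in rrp6L1-2 was 52 nt, with 0.366% and 6.53% against 1.65%. Ends beyond 60 nt made up 33.9% in rrp6L1-1, 25% in rrp6L1-2 and 44.9% in Col-0. Beyond 100 nt the order of the alleles turned, with 2.62% in rrp6L1-1, 5.33% in rrp6L1-2 and 1.12% in Col-0. In the alleles most of these were ends at 103 nt, which held 1.54%, 5.10% and 0.201% in that order. The 40 nt position that held most nrpe1-11 reads was used by neither allele.

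At IGN5t the alleles had used positions in common up to 34 nt and none beyond. The 12 shared positions lay at 7 to 34 nt, and all 9 positions with a difference of at least 10-fold lay at 36 nt or farther. The most frequent position, 12 nt, held 15.4% in rrp6L1-1, 18.7% in rrp6L1-2 and 25.5% in Col-0. In a T-rich stretch the main end was at 38 nt in rrp6L1-1 and at 34 nt in rrp6L1-2. The 38 nt end is the last T of TgTTT in the rrp6L1-1 line above, and it held 14.8% of ends in rrp6L1-1, 0.129% in rrp6L1-2 and 1.16% in Col-0. At 34 nt lay 1.64%, 13.9% and 0.820% in that order. The shared positions themselves could be unequal, as at 7 nt with 4.66% in rrp6L1-1, 11.9% in rrp6L1-2 and 7.66% in Col-0. The single-allele position at 28 nt held 6.82%, 0.786% and 0.750%. Farther out, 72 nt held 3.16% in rrp6L1-1, 0 of 6999 ends in rrp6L1-2 (a share of up to 0.0429%) and 5.74% in Col-0. Conversely 102 nt held 0.365% in rrp6L1-1, 8.36% in rrp6L1-2 and 0.0234% in Col-0. Ends beyond 100 nt made up 4.59%, 9.39% and 2.48% in that order. The median was 5 nt longer in rrp6L1-1, at 28 nt, than in rrp6L1-2, at 23 nt (23 to 26 nt). The difference was 0 nt without ends at 1 to 10 nt, -2 nt without positions followed by a genomic A and 22 nt when every distinct position with at least 2 ends weighed the same.

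IGN5b showed a shared cluster of ends with single-allele positions on both sides. The 4 positions used by both, 42, 43, 44 and 46 nt, together made up 33.8% in rrp6L1-1, 31.4% in rrp6L1-2 and 0.113% in Col-0. Most of this was 44 nt (chr4:2323347), with 25.9% in rrp6L1-1 and 21.1% in rrp6L1-2. Next to it 43 nt held 1.14% and 6.81%. Both medians lay on the 44 nt peak. When the most frequent positions of the alleles were left out they differed by 42 nt, and by -49 nt when positions followed by a genomic A were left out, so the equality of the medians rests on the most frequent positions.

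The other 11 IGN5b positions were each used by a single allele and lay on both sides of the cluster. In rrp6L1-1 these were 9, 14, 18, 49, 68, 80 and 86 nt, and in rrp6L1-2 they were 22, 36, 57 and 92 nt. At 80 nt lay 21.9% in rrp6L1-1, 0.189% in rrp6L1-2 and 0.0317% in Col-0. At 92 nt lay 0 of 17850 ends in rrp6L1-1 (a share of up to 0.0168%), 24.9% in rrp6L1-2 and 6.73% in Col-0. Position 57 nt, chosen after its values were seen, held 0.0280% in rrp6L1-1, 9.49% in rrp6L1-2 (1103 ends) and 0 of 22079 ends in Col-0, which allows a share of up to 0.0136%. At 36 nt, the most frequent position of Col-0, lay 0.756% in rrp6L1-1, 16.7% in rrp6L1-2 and 34.3% in Col-0. At 86 nt lay 13.3% in rrp6L1-1, 0.877% in rrp6L1-2 and 0.756% in Col-0, and 14 nt, with 7.94% and 0.447% in the alleles, held 7.96% in Col-0. Single-allele positions thus included ends that were frequent in Col-0 and ends that were rare there. Ends beyond 60 nt made up 39.9% in rrp6L1-1 (39.2% to 40.7%), 27.0% in rrp6L1-2 (26.2% to 27.8%) and 22.7% in Col-0. Farther out the direction turned, with 14.3% of ends at 81 to 100 nt in rrp6L1-1 and 26.7% in rrp6L1-2. The 75% and 90% quantiles were 80 and 86 nt in rrp6L1-1 and 91 and 92 nt in rrp6L1-2.

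IGN25 had equal medians of 74 nt, with an interval of 74 to 77 nt in rrp6L1-2, and 17.7% of ends in common. Both alleles used 5 positions, 18, 32, 74, 81 and 87 nt, which are 31.2% of those of rrp6L1-1 and 38.5% of those of rrp6L1-2. Their sum was 17.1% in rrp6L1-1 and 46.3% in rrp6L1-2. Frequent in rrp6L1-1 were 98 nt with 31.9%, 24 nt with 12.9% and 45 nt with 11.3%, where rrp6L1-2 had 0.00722% (1 end), 0.0867% and 0.0506%. In Col-0 these 3 positions held 0.0704%, 0.630% and 0.282%.

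Frequent in rrp6L1-2 at IGN25 were 32 nt, with 2.75% in rrp6L1-1 and 20.8% in rrp6L1-2, 18 nt, with 1.73% and 16.5%, and 86 nt, with 0.226% and 13%. Col-0 held 10.2%, 14.8% and 0.102% there. Ends beyond 100 nt made up 0.244% in rrp6L1-1 (0.160% to 0.358%), 14.4% in rrp6L1-2 (13.9% to 15.0%) and 13.6% in Col-0. The 3 positions used there by rrp6L1-2 were 140, 142 and 145 nt. They held 3.07%, 1.95% and 8.17% in rrp6L1-2, against 10.5%, 0.0423% and 0.0176% in Col-0. The equal medians depended on single positions: the difference was -41 nt without the most frequent positions of the alleles, and 12 nt without positions followed by a genomic A.

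IGN17 had the least in common at single positions with all ends kept. A single position dominated each allele: 31 nt with 66.8% in rrp6L1-1 (6217 of 9307 ends) and 2.22% in rrp6L1-2, and 43 nt with 0.215% in rrp6L1-1 and 51.9% in rrp6L1-2 (9453 of 18209 ends). Col-0 held 0.862% and 0.0254% at these positions. The second position of rrp6L1-2, 32 nt, held 0.870% in rrp6L1-1, 21.8% in rrp6L1-2 and 0.192% in Col-0, and lies 1 nt from the main end of rrp6L1-1. At 30 nt lay 11.9% in rrp6L1-1, 0.604% in rrp6L1-2 and 15.3% in Col-0, and at 17 nt 5.96%, 1.42% and 21.1%. The medians were those peaks, 31 nt in rrp6L1-1 and 43 nt in rrp6L1-2, and their difference of -12 nt turned to 2 nt without positions followed by a genomic A.

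Both IGN17 alleles had ends in the same short region all the same. Ends beyond 60 nt made up 0.0430% in rrp6L1-1 (4 ends) and 1.91% in rrp6L1-2, against 37.5% in Col-0. At 37 nt lay 4.30% in rrp6L1-1, 5.42% in rrp6L1-2 and 0.0326% in Col-0. The share in common was 39.3% in bins of 5 nt, against 13.2% at single positions. By 31 nt the cumulative share had reached 94.1% in rrp6L1-1 and 12.4% in rrp6L1-2. This gap of 0.817, the Kolmogorov-Smirnov distance, compares with 0.0423 at IGN29.

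**Figure D5:**
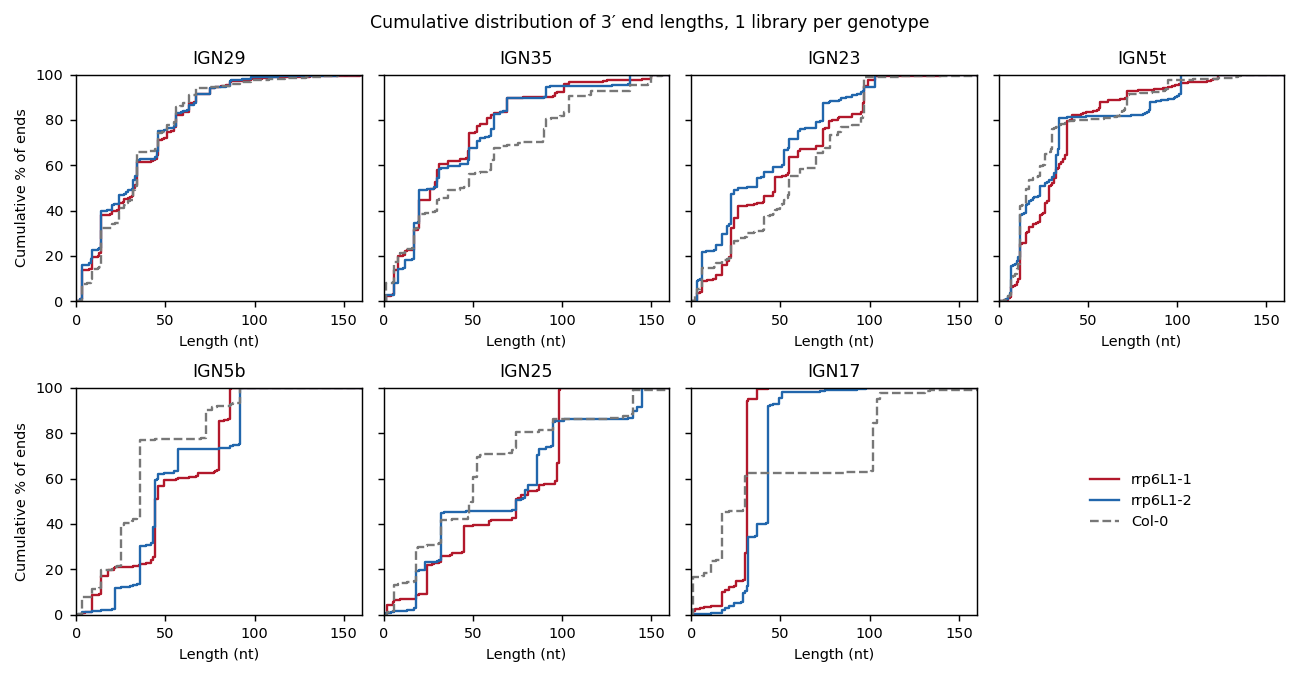
Cumulative share of ends (y axis, %) against length (x axis, nt, up to 160 nt) at each locus in rrp6L1-1 (red), rrp6L1-2 (blue) and Col-0 (grey, dashed), 1 library each; at most 1.16% of ends, those of Col-0 at IGN17, lie beyond the axis. At IGN29 the 3 curves lie close together, at IGN35 the allele curves are farthest apart at 58 nt, where they have reached 80.8% in rrp6L1-1 and 72.5% in rrp6L1-2, and at IGN17 the curve of rrp6L1-1 has reached 94.1% by 31 nt where that of rrp6L1-2 is at 12.4%.

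Positions used by both alleles were in part positions of Col-0 and in part not. Of the 71, 46 were also used in Col-0 and 25 were not. The 25 came from all 7 loci but in unequal parts of the shared positions. They were 4 of 4 at IGN5b, 3 of 4 at IGN17 and 2 of 5 at IGN25. At IGN23 they were 6 of 18, at IGN5t 4 of 12, at IGN35 4 of 13 and at IGN29 2 of 15. At IGN35 the 4 such positions summed to 15.0% in rrp6L1-1, 14.5% in rrp6L1-2 and 1.52% in Col-0. At IGN23 the 6 held 10.2% and 16.2% against 2.27%. The sums were less equal at IGN17, with 72.3% in rrp6L1-1, 8.74% in rrp6L1-2 and 0.996% in Col-0. At IGN5t they were 9.14%, 24.6% and 2.69% in that order. Among the positions of a single allele, 18 of the 47 of rrp6L1-1 and 15 of the 34 of rrp6L1-2 were used in Col-0. Of the 107 positions used in Col-0, 28 were used by neither allele. All of these counts rest on the same Col-0 library.

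The base after the end differed between the alleles at the loci that diverged. At IGN17, 17.7% of ends in rrp6L1-1 and 90.6% in rrp6L1-2 lay directly before a genomic A, where a tail of A added to the RNA cannot be told from the genome. At IGN5b these shares were 92.7% and 54.8%, and at IGN25 38.9% and 63.1%. At the other 4 loci the alleles lay closer, differing least with 57.8% in rrp6L1-1 and 56.8% in rrp6L1-2 at IGN5t and most with 70.7% and 79.5% at IGN35. Over the used positions, 50 of the 71 shared ones (70.4%) and 43 of the 81 used by a single allele (53.1%) were followed by A. Of all bases other than A in the stretches, 30.6% were. The end base was T at 36 of the shared positions (50.7%) and 42 of the others (51.9%). T made up 29.7% of all bases in the stretches and 45.2% of those other than A. Of the used positions, 70 shared ones and 80 of the others did not lie on A, and T made up 51.4% and 52.5% of these.

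The loci also took different parts of the 2 libraries. IGN17 gave 8.47% of the rrp6L1-1 reads and 20.4% of the rrp6L1-2 reads, and IGN25 gave 9.68% and 15.5%. The other 5 loci gave larger shares in rrp6L1-1, such as 11.7% against 7.84% in rrp6L1-2 at IGN5t and 22.1% against 17.7% at IGN23. The part of pooling and PCR in the profiles was not tested.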

How the data were processed

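Each library's deposited table lists its reads with their locus, name, strand, end coordinate, length in nt and a mapping quality score, which ran from 41 to 44. Tools listed in the submitters' processing notes are SAMtools, bedtools, Bowtie2, cutadapt 1.9.1 and bcl2fastq 2.16.0.10, and the genome is TAIR10; what each did is not stated there. How length 1 was set is not given in the sources used here. Exact duplicate lines were dropped and reads were assigned by the locus column. Sequences and neighbouring genes came from TAIR10.1, read at the deposited positions; length grows on the strand opposite to the deposited one at every locus. Tables were processed with Python 3.11.15, pandas 2.3.3 and SciPy 1.17.1. Differences are rrp6L1-1 minus rrp6L1-2. A quantile is the shortest length that at least that percent of ends do not exceed. Intervals of medians come from order statistics and those of shares are exact Clopper-Pearson intervals, both at 95% and for counting error only. A share of 0 was bounded by 3 ends. All 7 loci are named. Positions named were the 3 most frequent of each allele and those with the largest difference each way; further ones were named where a result turned on them, chosen after their values were seen. The members, thresholds and alternatives were chosen with earlier results of these data known. The comparison of positions was tested on simulated profiles.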

Additional observations from a re-analysis of the deposited data

Results flagged for a closer look

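At 2 loci a length quantile of the alleles lay on opposite sides of Col-0. With 1 library per genotype the difference was not tested. At IGN25 the 90% quantile of length was 98 nt in rrp6L1-1, 142 nt in rrp6L1-2 and 140 nt in Col-0, which is -42 nt and 2 nt from Col-0. At IGN29 the 75% quantile was 55 nt in rrp6L1-1, 47 nt in rrp6L1-2 and 51 nt in Col-0, which is 4 nt and -4 nt from Col-0.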

How the results depend on the processing

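Each result had 1 library per allele, so the spread between libraries is unknown. How many RNA molecules the reads stand for is unknown too, since they passed nested PCR and carry no molecular identifiers. No paired analysis was possible because each genotype had 1 library. Counting lines as deposited changed none of the results, since the tables of the alleles hold no repeats. The median absolute difference of medians, 1 nt, was 2 nt without ends at 1 to 10 nt, 13 nt without the most frequent positions of the alleles, 4 nt without positions followed by a genomic A, 1.6 nt by the mean and 9 nt when every distinct position with at least 2 ends weighed the same. The loci within 10 nt, 5 of 7, became 3 without the most frequent positions. They became 4 without positions followed by a genomic A and 4 when every distinct position with at least 2 ends weighed the same. Without ends at 1 to 10 nt they were 6, and by the mean 6. With a limit of 5 nt they were 4, and with 20 nt 6. Singly, the median difference turned to 2 nt at IGN17 (positions followed by A left out) and to -4 nt at IGN23 (the same, and ends at 1 to 10 nt left out). The cause was not tested. For the quantiles, alternatives were added after seeing the data. Without ends at 1 to 10 nt, the median absolute difference was 1 nt at 10% (main 6), 1 nt at 25% (main 0) and 4 nt at 75% (main 8). Without the most frequent positions it was 3 nt at 10%, 8 nt at 25% and 13 nt at 90% (main 7), and without positions followed by A it was 5 nt at 10%, 3 nt at 25%, 4 nt at 75% and 3 nt at 90%. The median share in common, 52.1%, was 49.1% without ends at 1 to 10 nt, 44% without the most frequent positions, 43.5% without positions followed by A, 56.2% in bins of 5 nt and 72.0% in bins of 10 nt. The median Kolmogorov-Smirnov distance, 0.202, was 0.229 without the most frequent positions and 0.261 without positions followed by A. Of the positions used by either allele, both used 46.7%, and 36.6% and 25.9% with limits of 2% and 5%, and 33.8% without positions followed by A. It was 59.9%, 69.1% and 80.3% when the other allele had a used position within 1, 2 or 5 nt. Bases that an allele did not use often lay that near as well. Within 5 nt of its used positions lay 67.9% of them for rrp6L1-1 and 61.4% for rrp6L1-2. Differences of at least 5-fold were found at 46.7% of positions and of at least 20-fold at 27.6%, against 37.5% at 10-fold.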

Other observations

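Several single-allele positions lay next to a position of the other allele. At IGN25, 23 nt had 0.0940% of rrp6L1-1 ends and 3.52% of rrp6L1-2 ends, and 24 nt had 12.9% and 0.0867%. Ends between 95 and 98 nt at that locus lay mainly at 97 and 98 nt in rrp6L1-1 (8.27% and 31.9%) and at 95 nt in rrp6L1-2 (10.8%). At IGN23, 46 nt was used by both, with 1.49% and 1.96%, and 47 nt by rrp6L1-1, with 6.73% against 0.0189%. Over all loci, 9 of the 47 positions of rrp6L1-1 alone lay within 1 nt of a position used by rrp6L1-2 (19.1%), where 23.3% of all bases not used by rrp6L1-2 did. For rrp6L1-2 alone, 11 of 34 lay within 1 nt of a position used by rrp6L1-1 (32.4%), where 26.7% of the bases not used by rrp6L1-1 did. Within 2 nt these were 18 of 47 (38.3%, all bases 39.8%) and 16 of 34 (47.1%, all bases 44.1%). Within 5 nt they were 29 of 47 (61.7%, all bases 61.4%) and 22 of 34 (64.7%, all bases 67.9%). These values were chosen after seeing the data.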
